A study of Danio rerio with 8 samples.

Results

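A list of 10 genes served as markers of macrophages and neutrophils, the phagocytes of innate immunity, and of white blood cells at large: mpeg1.1, mpeg1.2, csf1ra and marco for macrophages, mpx and lyz for neutrophils, lcp1, coro1a and ptprc for leukocytes in general, and cd74a for antigen-presenting cells. They were taken by gene symbol. Of these 10 genes, 8 were measured, with 12 probes, among 14462 named genes. The symbols lyz, which encodes lysozyme C, and ptprc, which encodes the leukocyte phosphatase CD45, were not found among the named probes and were not analysed here.

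The samples came from adult zebrafish of the AB2O2 wild type strain, untreated. RNA of the cornea and RNA of the epidermis of the skin were labelled with different dyes and hybridised together, so that each array gave a log2 ratio of the tissues for every probe. There were 4 biological repeats, each of pooled tissue from several fish, and each was run on 2 arrays with the dyes exchanged, which makes 8 arrays on 2 slides. The cornea was freed with forceps from removed eyes, and the epidermis was taken on scraped scales, whose own cells can be present in it.

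Ratios are given as cornea over epidermis, so that a value above 0 means higher in cornea and 1 log2 unit is a 2-fold difference. The sources do not give the direction. It was taken from the way the labels name the tissues, cornea first, and from tissue check genes: all 10 measured genes of cornea and eye surface were called higher, among them pax6b, a master regulator of the eye (4.09 ± 0.25, SD, n = 4 repeats here and below), and 12 of 15 skin genes were called lower, among them hoxc9a (−4.32 ± 0.61). Several of these check genes were named by the study from these samples. The epithelial gene tp63, listed with the skin genes, was higher in cornea (1.77 ± 0.32). Gene names depend on reordering the probe grid, a layout inferred from these values. In that layout, different probes of the same gene correlated at r = 0.361 across 5098 genes, against r = 0.0191 with the numbering as given, and every gene name below holds only if that layout is right.

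Macrophages live in most tissues, where they take up and digest microbes and dead cells in lysosomes, and neutrophils are short-lived cells that carry bactericidal enzymes in granules and enter a tissue on injury or infection. The cornea has no blood vessels but holds resident macrophages and dendritic cells, and the epidermis holds Langerhans cells and other patrolling leukocytes. In mixed tissue RNA, fewer cells of a type and less RNA of a gene per cell cannot be told apart.

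The marker genes did not move together. Of the 8 measured, 2 were called higher in cornea, mpeg1.2 and lcp1, and 3 were called lower, mpeg1.1, coro1a and cd74a, at an adjusted p under 0.05 (limma, all genes). Each of the called genes had 1 probe, so its value could not be compared with a second probe. The other 3, csf1ra, mpx and marco, were not called. Of all genes tested, 22.9% were called higher and 13.8% lower in cornea. The median of the 8 genes was 0.02, beside 0.03 for all genes, and their means ran from −1.61 to 2.63.

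**Figure D1:**
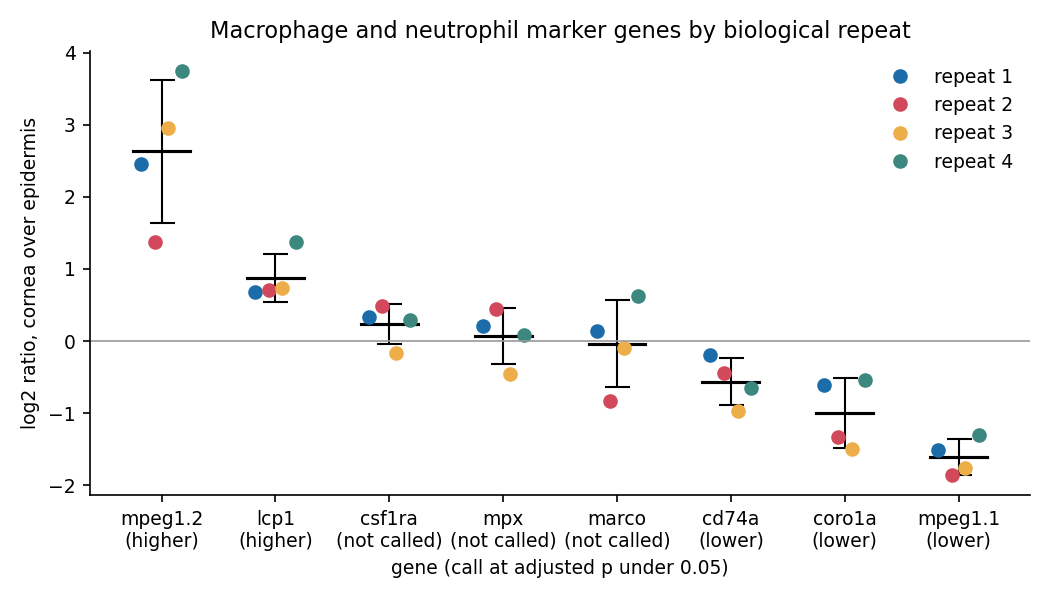
Log2 ratio of cornea over epidermis (vertical axis) of the 8 measured marker genes, ordered by mean (horizontal axis, with the call of each gene). Points are the 4 biological repeats, each the mean of 2 arrays, and bars give the mean and whiskers the SD. All 4 repeats of mpeg1.2 and lcp1 lie above 0 and all 4 of cd74a, coro1a and mpeg1.1 below it.

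The largest differences in either direction belonged to a pair of paralogues. Both mpeg1.1 and mpeg1.2 encode perforin-like proteins of macrophages, which form pores in the membrane of engulfed bacteria, and the promoter of mpeg1.1 is widely used to label macrophages in living zebrafish. In repeats 1 to 4, the log2 ratio of mpeg1.2 was 2.46, 1.37, 2.95 and 3.75, with a mean of 2.63 ± 0.99, a 6.20-fold difference (adjusted p = 0.00198). It was above 0 on 8 of 8 arrays. The mean was higher than that of 99.1% of all genes, but its SD was also larger than that of 97.3% of them, and the repeats ranged from 2.58-fold in repeat 2 to 13.4-fold in repeat 4.

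For mpeg1.1 the log2 ratio was −1.51, −1.86, −1.76 and −1.31 in repeats 1 to 4, with a mean of −1.61 ± 0.25, 3.05-fold lower in cornea (adjusted p = 3.97e-04). It lay below 0 on all 8 arrays, and only 1.47% of all genes had a lower mean. The repeats of these genes were far from overlapping. Within each repeat, and so within the same RNA, mpeg1.2 exceeded mpeg1.1 by 3.97, 3.23, 4.72 and 5.05 log2 units, on average by 4.24 ± 0.81. These are differences between the tissue ratios, not between the levels of the genes. The pair was singled out with its values known, and an exact two-sided sign-flip test over 4 repeats gave p = 0.125, the smallest value it can give.

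The spread of mpeg1.2 lay between repeats and not between arrays. The 2 arrays of a repeat differed by 0.02 to 0.46 log2 units for mpeg1.2, beside a median gap of 0.46 over all probes. The repeats of slide 2 stood 1.43 log2 units above those of slide 1 (unadjusted p = 0.0270, adjusted p = 0.9997 over all genes, limma). No gene of all 14462 was called for a slide difference, with 478 at an unadjusted p under 0.05. With only 2 repeats on each slide, the lack of calls does not show that the slides were alike. Whether slide had a part in the spread was not tested further. The call of mpeg1.2 was kept within either slide, where its mean was 1.92 on slide 1 and 3.35 on slide 2 (adjusted p = 0.0103 and 0.00770).

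Genes of the leukocyte cytoskeleton went both ways. L-plastin, the product of lcp1, bundles actin filaments in all white blood cells, and coronin 1A, the product of coro1a, binds actin and is used in zebrafish to label leukocytes. In repeats 1 to 4, the log2 ratio of lcp1 was 0.68, 0.71, 0.73 and 1.37, a mean of 0.87 ± 0.33 or 1.83-fold higher in cornea (adjusted p = 0.00653). For coro1a it was −0.61, −1.33, −1.49 and −0.55, a mean of −0.99 ± 0.48 or 1.99-fold lower (adjusted p = 0.00957). Both genes had the same sign on all 8 arrays, positive for lcp1 and negative for coro1a. Repeats 1 to 3 of lcp1 were within 0.06 log2 units of each other with repeat 4 above them, whereas for coro1a repeats 1 and 4 lay near each other and above repeats 2 and 3.

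The invariant chain, encoded by cd74a, escorts class II histocompatibility molecules in antigen-presenting cells. The log2 ratio of cd74a was −0.20, −0.44, −0.97 and −0.65 in repeats 1 to 4, a mean of −0.56 ± 0.33 or 1.48-fold lower (adjusted p = 0.0334). This call was weak. The arrays of repeat 4 stood at 0.63 with cornea in Cy5 and −1.93 with cornea in Cy3, a gap of 2.57 log2 units beside a 95th percentile of 2.2 over all probes, and 2 of the 8 arrays lay above 0. Without repeat 2, 3 or 4 the adjusted p was 0.0677, 0.126 and 0.113, and with all 8 arrays, a replicate block and a dye term it was 0.259.

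For the other 3 genes the difference was within the spread between repeats. The gene csf1ra encodes the receptor for colony-stimulating factor 1, on which macrophages depend, and is also active in xanthophores, the yellow pigment cells of fish. Its log2 ratio was 0.33, 0.49, −0.17 and 0.30 in repeats 1 to 4, with a mean of 0.24 ± 0.28 (adjusted p = 0.262). Its 2 probes stood at 0.18 and 0.29, so that both were on the same side with neither called.

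The gene marco encodes a scavenger receptor with which macrophages bind bacteria. Its log2 ratio was 0.14, −0.82, −0.09 and 0.63 in repeats 1 to 4, a mean of −0.04 ± 0.60 (adjusted p = 0.918). The arrays of each repeat lay within 0.27 log2 units of each other, so the repeats of marco differed by far more than the hybridisations of the same RNA. Its SD was larger than that of 86.0% of all genes. Repeat 4 was 1.55-fold higher in cornea and repeat 2 was 1.77-fold lower.

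Myeloperoxidase, encoded by mpx, is the chief enzyme of the neutrophil granule and the usual marker of neutrophils in zebrafish. Averaged over its 4 probes, the log2 ratio of mpx was 0.20, 0.45, −0.46 and 0.09 in repeats 1 to 4, a mean of 0.07 ± 0.38 (adjusted p = 0.788). The 4 probes had means of 0.14, −0.12, 0.28 and −0.03, none of them called (adjusted p between 0.218 and 0.963, limma over all probes). The fourth probe was erratic. With cornea in Cy5 it read 0.16, 2.62, 1.65 and −0.16 in repeats 1 to 4, and with cornea in Cy3 0.92, −1.03, −3.90 and −0.49. Its arrays were 5.55 log2 units apart in repeat 3, beyond the 99th percentile of all probes, 3.99. Leaving that probe out, a choice made after its values were seen, left mpx uncalled at 0.10 (adjusted p = 0.615).

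**Figure D2:**
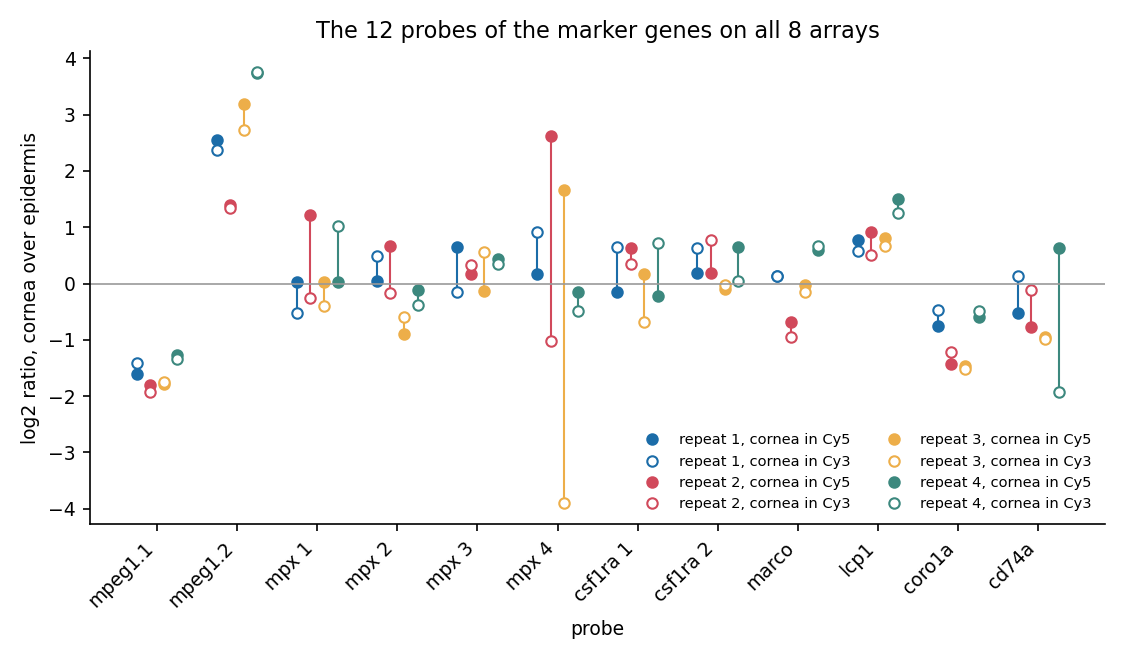
Log2 ratio of cornea over epidermis (vertical axis) on every array for the 12 probes of the marker genes (horizontal axis; mpx has 4 probes and csf1ra 2). Filled points are arrays with cornea in Cy5, open points arrays with cornea in Cy3, and a line joins the arrays of a repeat. The arrays of mpeg1.1, mpeg1.2, marco, lcp1 and coro1a lie within 0.46 log2 units of each other in every repeat, whereas the fourth probe of mpx spans −3.90 to 2.62.

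Probe by probe, 2 of the 12 probes were called higher, those of mpeg1.2 and lcp1, and 2 lower, those of mpeg1.1 and coro1a, beside 14.0% and 10.4% of all features. The probe of cd74a was not called in this larger family (adjusted p = 0.0663). The dye effect, taken as the difference between the arrays of a repeat divided by 2, was called for 0 of the 12 probes (limma, none at an unadjusted p under 0.05, lowest 0.134) and for 0.467% of all features. No spot intensities were used, so for genes near 0 such as mpx, equal expression cannot be told apart from signal too weak to give a ratio.

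The repeats did not rank alike across these genes. Repeat 4 gave the highest value for 5 of the 8 marker genes (mpeg1.1, mpeg1.2, marco, lcp1 and coro1a), beside 25.3% of all genes, and the lowest for 0, beside 19.4%. Repeat 3 gave the lowest value for 4, beside 21.3%. The genes share the same 4 RNA pairs and are not independent, so this is a description. In the gene fit, the calls of mpeg1.1, mpeg1.2, lcp1 and coro1a did not need repeat 4. Without it their adjusted p was 0.00254, 0.00709, 0.0223 and 0.0175 (limma over all genes). In the probe fit, 1 marker probe was called higher without repeat 4, against 2 with it, and 2 were still called lower.

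Other genes of white blood cells were called in both directions, with shares that varied from list to list. Over 5 lists with 133 measured genes, 27 were higher in cornea and 32 lower, that is 20.3% and 24.1%, beside 22.9% and 13.8% of all genes. The median was −0.03. By repeat, the medians were 0.17, −0.23, −0.19 and −0.02, beside 0.07, 0.03, 0.06 and 0.09 for all genes.

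**Figure D3:**
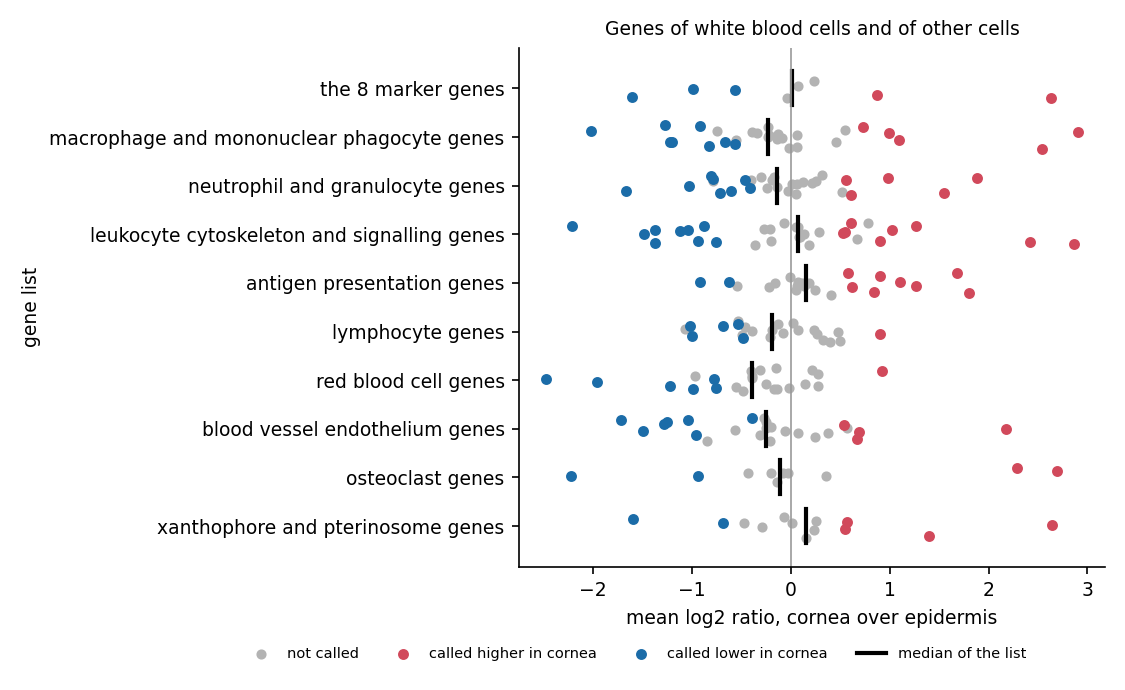
Mean log2 ratio of cornea over epidermis (horizontal axis) of each measured gene in the marker genes and 9 further lists (vertical axis; points are scattered vertically only for legibility). Red points were called higher in cornea, blue points lower, grey points were not called, and black bars are the medians of the lists. Each of these lists holds genes called in both directions, and the median is lowest for red blood cell genes, −0.39.

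Among 28 macrophage and mononuclear phagocyte genes, 5 were higher and 8 lower (median −0.23). These were 17.9% and 28.6%, beside 22.9% and 13.8% of all genes. Highest were ctss2.2, a cathepsin S-type lysosomal protease (2.91 ± 0.88), cd68, a lysosomal membrane protein of macrophages (2.54 ± 0.51), and il34, a ligand of the Csf1 receptor (1.1 ± 0.53). Lowest were cebpa, a transcription factor of myeloid cells (−2.02 ± 0.18), and the complement genes c1qa (−1.27 ± 0.73) and c1qb (−1.23 ± 0.27). The call of c1qa was lost without repeat 4 (adjusted p = 0.0517). The regulators of the macrophage lineage irf8 (−0.22 ± 0.38), spi1a (−0.23 ± 0.34) and spi1b (−0.14 ± 0.22), like csf1ra, were not called. The myeloid factor cebpa, as given above, was called lower. The gene mfap4.1, of a family used as a macrophage marker in zebrafish, was at −0.74 ± 0.62 and just missed the threshold (adjusted p = 0.0519).

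Some of these genes were singled out after their values were seen because they belong to families or complexes. The subunits of C1q, the recognition protein of the classical complement pathway that macrophages secrete, were lower in all 3 cases, with c1qc at −1.20 ± 0.36 (adjusted p = 0.00217). In repeat 1 all 3 were nearest to 0, at −0.24, −0.87 and −0.72. The cathepsin gene ctss2.1 was higher like its neighbour in name ctss2.2, but less so and with little spread (0.99 ± 0.14). For ctss2.2 the repeats read 2.82, 1.82, 3.01 and 3.97, lowest in repeat 2 and highest in repeat 4.

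The gene cd74b encodes another invariant chain. It was higher in cornea in every repeat, at 1.12, 0.80, 0.95 and 1.55 (mean 1.11 ± 0.33, adjusted p = 0.00246). Within repeats it exceeded cd74a by 1.32, 1.24, 1.92 and 2.2 log2 units (mean 1.67 ± 0.47), again with an exact p no lower than 0.125. Unlike the call of mpeg1.1, which was kept with the replicate block and without each repeat, that of cd74a was lost as given above.

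**Figure D4:**
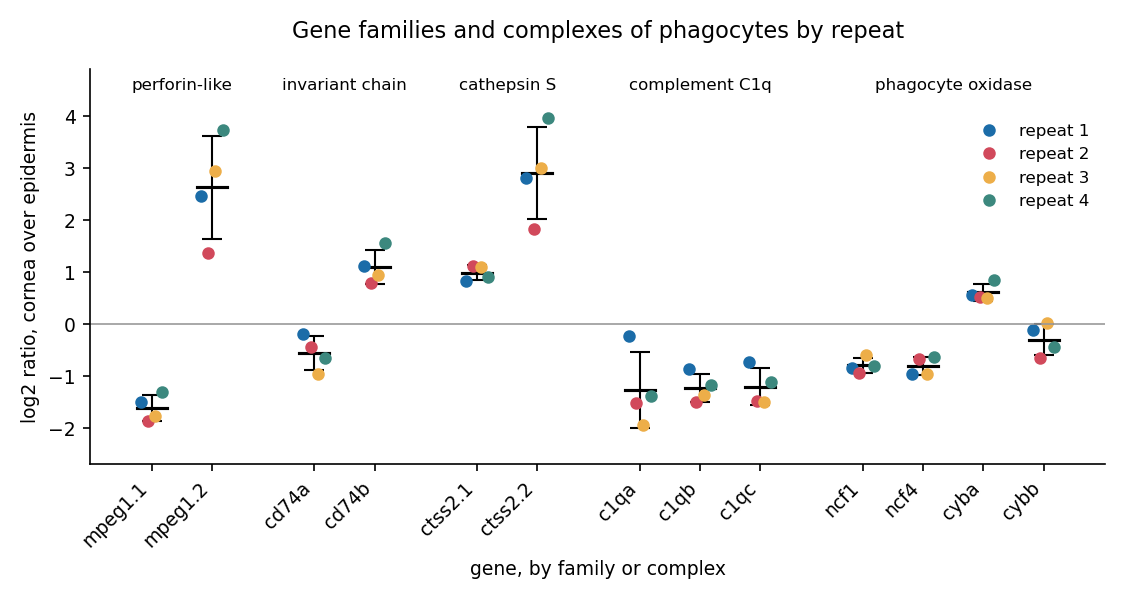
Log2 ratio of cornea over epidermis (vertical axis) of 13 phagocyte genes grouped by family or complex (horizontal axis). Points are the 4 biological repeats; bars give the mean and whiskers the SD. The members of the mpeg1 pair and of the cd74 pair lie on opposite sides of 0, and the 3 C1q genes lie below it.

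Neutrophil and granulocyte genes gave 5 higher and 8 lower of 29 (median −0.14), or 17.2% and 27.6% beside 22.9% and 13.8% of all genes. Highest were cxcr4b, a chemokine receptor that holds neutrophils in the marrow but is also used by many migrating cells (1.88 ± 0.14), padi2, an enzyme that converts arginine to citrulline in proteins (1.54 ± 0.26), and nccrp1 (0.98 ± 0.36). The study names padi2 among its cornea genes, a set chosen in part from these samples and so not separate evidence. Lowest were the gelatinase gene mmp9 (−1.67 ± 0.89), the myeloid transcription factor gene cebp1 (−1.03 ± 0.15) and ncf4 (−0.80 ± 0.17). Of the phagocyte oxidase, the enzyme that makes superoxide against engulfed microbes, the cytosolic subunit genes ncf1 (−0.79 ± 0.14) and ncf4 were lower, cyba of the membrane part was higher (0.61 ± 0.16) and its partner cybb was not called (−0.30 ± 0.30). The proton channel gene hvcn1, whose product balances the charge moved by that oxidase, was lower (−0.71 ± 0.14).

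Of 31 genes of leukocyte cytoskeleton and signalling, 8 were higher and 9 lower (median 0.07), or 25.8% and 29.0% beside 22.9% and 13.8% of all genes. Higher were cd9b, a tetraspanin found in many cell types (2.87 ± 0.70), hcls1, a cortactin relative of blood cells (2.42 ± 0.29), and rac2, a GTPase of neutrophil movement (1.27 ± 0.11), whose 2 probes stood at −0.63 and 3.17. Of these, cd9b is also among the cornea genes that the study names, which were chosen in part from these samples. With only its probe of smallest SD, at −0.63, rac2 was called lower (adjusted p = 0.0141, limma). Lower were tagapa (−2.21 ± 0.42), runx3 (−1.49 ± 0.17) and pik3cd, a lipid kinase subunit of leukocytes (−1.38 ± 0.92). The call of pik3cd was lost without repeat 2, 3 or 4 (adjusted p between 0.0658 and 0.0698).

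Of 22 antigen presentation genes, 8 were higher, or 36.4% beside 22.9% of all genes, 2 were lower, or 9.09% beside 13.8%, and 12 were not called (median 0.16). Highest were ctsla (1.80 ± 0.21) and ctsd (1.68 ± 0.83), lysosomal proteases that most cells use, and tapbp.1, which encodes tapasin, a loader of class I molecules (1.26 ± 0.18). Lower were the lysosomal protease gene ctsba (−0.93 ± 0.62), a call lost without repeat 2 or 3 (adjusted p = 0.0829 and 0.0863), and the immunoproteasome gene psmb9a (−0.62 ± 0.16). With cornea in Cy5 only, psmb9a was at −0.98 (adjusted p = 0.00421, limma). With cornea in Cy3 only, it was at −0.26 and not called (adjusted p = 0.302, limma). The class II regulator ciita was at −0.55 ± 0.69 and the class I light chain gene b2m at −0.16 ± 0.42, neither called.

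Lymphocyte genes were measured because lcp1, coro1a and cd74a are shared with these cells. Of 23, 1 was higher and 5 lower (median −0.19), or 4.35% and 21.7% beside 22.9% and 13.8% of all genes. The higher gene was bcl11ba, a T cell factor that also acts in skin (0.90 ± 0.39). Lowest among those called were the T cell kinase gene lck (−1.02 ± 0.38), gata3, which is also an epithelial factor (−1.01 ± 0.63), and cd8a (−0.69 ± 0.34). The 2 probes of cd8a stood at −1.16 and −0.21. With only its probe of smallest SD, the latter, cd8a was not called (adjusted p = 0.228, limma). The calls of gata3 and cd8a were each lost without repeat 2, 3 or 4 (adjusted p between 0.0574 and 0.0776).

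Markers of blood and vessels, which can carry leukocytes into a tissue sample, were also measured. Of 23 red blood cell genes, 1 was higher and 6 lower, with a median of −0.39, and medians between −0.36 and −0.18 in the single repeats. Of these, nt5c2l1 (−2.48 ± 0.59), rhd (−1.96 ± 0.38) and the globin gene ba2 (−1.23 ± 0.81) were lowest and urod (0.93 ± 0.41) was higher. Without repeat 3 or repeat 4, ba2 was no longer called (adjusted p = 0.0547 and 0.0727). Of 24 vessel endothelium genes, 4 were higher and 7 lower (median −0.25, and between −0.32 and −0.25 in the single repeats), from pecam1a (−1.72 ± 0.40) and egfl7 (−1.50 ± 0.31) to lyve1a (2.18 ± 0.21). Not called were 16 of 23 and 13 of 24 genes of these lists, beside 9153 of all 14462 genes. Called lower were 26.1% of the red blood cell genes and 29.2% of the vessel genes, beside 13.8% of all genes. Called higher were 4.35% and 16.7%, beside 22.9%. The part of blood or vessels in the differences of the marker genes was not tested.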

How the data were processed

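From 2-colour Agilent arrays read with GenePix, the authors corrected background by the minimum method and normalised in limma, first within arrays and then between them by Aquantile. Its version is not given in the sources. The authors deposited a log2 ratio for each of 45220 features on each of 8 arrays, and base 2 was assumed, as limma uses it. Arrays of opposite dye in the same repeat correlated at r between 0.390 and 0.515, so signs were left as deposited. Depth has no meaning for arrays, and their number limits the precision.

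Features were named with the platform annotation through a grid of 532 by 85 places, and a gene is the mean of its probes. Both arrays of a repeat share their RNA, so their mean was used (n = 4). The repeat number therefore pairs arrays by design, although their deviations correlated only at 0.0213 to 0.0899. Genes and probes were tested with limma 3.58.1 under R 4.3.3, with lmFit and eBayes against a mean of 0. Tests were two-sided, with Benjamini-Hochberg adjustment over all genes or all features, and were checked on simulated data. The R package data.table (version 1.17.8), Python 3.11.15, numpy 2.4.6, pandas 2.3.3 and matplotlib 3.10.9 were also used. Members, lists and tests were chosen with earlier results of these data known. From each list up to 3 called genes with the largest mean in each direction were named; other names are given as singled out or as regulators and family members of the lists, and were chosen after their values were seen.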

Additional observations from a re-analysis of the deposited data

Results flagged for a closer look

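A repeat that lay far from the other 3 was looked for in 68 sets of 4 repeats. These were the marker genes, probes of mpx and csf1ra, the mpeg1 difference and the named genes of the lists. Such a repeat was found in 3 sets. Chance flags about 1 set in 20, so 3 of 68 is no more than chance gives. For lcp1, repeat 4 stood at 1.37 and the others between 0.68 and 0.73. For the lymphatic receptor gene flt4, repeat 1 stood at 0.26 and the others between 0.77 and 0.85. For hoxc9a, repeat 1 stood at −3.40 and the others between −4.74 and −4.52.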

How the results depend on the processing

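The count of marker genes called higher, 2, and lower, 3, was 1 and 1 within slide 1, and 0 and 1 at a stricter threshold (adjusted p under 0.001, difference over 2-fold), where only mpeg1.1 passed. Calls over all genes, in either direction, also varied with the setting. They numbered 5309 in the main fit, 2039 within slide 1, 3414 within slide 2 and 3433 with the numbering as given. Without 1 repeat they numbered 3818 to 4854. Such counts are not given here for the stricter threshold or for all features. With the numbering as given, a different pairing of names and features from that used here, 2 were higher and 1 lower. These were not all the same genes. Higher were mpx (0.60, adjusted p = 0.0249, limma) and marco (0.74, adjusted p = 0.00963), and coro1a was lower (−1.48). The calls of mpeg1.1, mpeg1.2, lcp1 and cd74a were lost, and mpeg1.2 minus mpeg1.1 was 0.87. Leaving out 1 repeat gave 2 higher and 2 to 3 lower. Called member probes, 2 higher and 2 lower, were 1 and 1 with cornea in Cy3 only, within slide 1 and within slide 2, 0 and 0 at the stricter threshold, and 1 to 2 and 1 to 2 without 1 repeat (1 higher without repeat 3 or 4, 1 lower without repeat 2 or 3); 1 was lower with the numbering as given. Over all lists apart from the marker genes, 49 genes were higher and 61 lower, beside 3315 and 1994 of all 14462 genes. These lists include the tissue check genes. Of those, 10 of 10 cornea genes were higher, and of 15 skin genes 12 were lower and 1 higher. The list counts were 27 and 25 within slide 1, 29 and 26 with the numbering as given and 22 and 17 at the stricter threshold. With all 8 arrays, the replicate block and a dye term, 2 marker genes were higher and 2 lower, and no marker gene but cd74a changed its call. Signs turned for mpx with cornea in Cy3 only (−0.26), without repeat 2 (−0.06, in a range of −0.057 to 0.245 without 1 repeat) and within slide 2 (−0.19). In those fits mpx was not called. Signs turned for marco, without a call, with cornea in Cy5 only (0.001), without repeat 2 (0.23) and within slide 2 (0.27). With the numbering as given, the sign of marco turned with a call (0.74), and that of lcp1 without one (−0.45). For rac2 the sign turned with a call when only the probe with the smallest SD was used (−0.63, adjusted p = 0.0141, limma). Within slide 1 or 2, with 2 repeats each, coro1a was not called (adjusted p = 0.0696 and 0.0731), nor was lcp1 within slide 1 (0.131). Array centring, scaling and robust eBayes changed no marker call. Causes were not tested.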

Other observations

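Among genes of osteoclasts, the bone-resorbing relatives of macrophages that work on scales, 2 of 10 measured were higher and 2 lower in cornea (median −0.11). The shares of all genes were 22.9% higher and 13.8% lower, so the list did not exceed all genes in its share called higher. The cathepsin K gene ctsk (2.69 ± 0.43) and ca2 (2.29 ± 0.44) were higher, and acp5b, which encodes tartrate-resistant acid phosphatase (−2.23 ± 0.69), and the chloride transporter gene clcn7 (−0.94 ± 0.19) were lower. The study also names ca2 among its cornea genes, which were chosen in part from these samples. Among genes of xanthophores, which also use csf1ra, 4 of 13 were higher and 2 lower (median 0.16). These were 30.8% and 15.4%, beside 22.9% and 13.8% of all genes. In the xanthophore list, mycbp2 (2.64 ± 0.36), qdpra (1.40 ± 0.38) and gch2 (0.56 ± 0.13, with probes at −0.13 and 1.25) were higher. Lower were pts (−1.60 ± 0.45) and xdh (−0.68 ± 0.26). On the RefSeq assembly GRCz12tu, cd74a and csf1ra lie on the same chromosome with 3 protein-coding genes between them, and their mean log2 ratios were −0.56 and 0.24.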
